A study of Mus musculus with 6 samples.

Results

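Cytosolic ribosomal proteins are the protein subunits of the ribosome that works in the cytoplasm. Their genes were taken from the deposited table by symbol. A row was a member if its gene was protein-coding and its symbol was Rpl or Rps with a number and an optional a or x, or was Rplp0, Rplp1, Rplp2 or Rpsa. A member also had to reach 10 normalized counts in at least 3 of 6 libraries. The symbols matched 76 of 24454 genes, and 75 of them passed the level rule, 45 of the large subunit and 30 of the small subunit. Rpl26 was listed at 0 in all 6 libraries and was the only symbol left out. The lowest member inside the rule was Rpl30, where 24.7 normalized counts or more were reached in 3 libraries.

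RNA sequencing was done on leukaemic blasts of 2 groups with 3 libraries each. Stat3β TG blasts came from fetal liver cells of C57BL/6 mice with the interferon-inducible Mx1-Cre recombinase and a Stat3β transgene that Cre activates, and WT blasts came from wild-type littermates. Cells of both groups were transformed with an MLL-AF9 retrovirus and transplanted into NSG mice (NOD.Cg-Prkdcscid Il2rgtm1Wjl/SzJ), which lack T, B and NK cells. All recipients were given poly(I:C) 4 weeks later to switch on Cre, and the blasts were sorted from bone marrow at 6 weeks. MLL-AF9 is a fusion oncogene of acute myeloid leukaemia, and Stat3β is a splice form of the transcription factor STAT3 that lacks the usual C-terminal end. The labels name neither Mx1-Cre nor the transgene for WT. They also do not state separate donors for the replicates. A p value here therefore covers the spread among the 6 libraries alone, which may be technical in part. The WT libraries also differ in sex-linked genes, as given below.

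The ribosome is made of a small subunit, which reads the messenger RNA, and a large subunit, which joins amino acids, and its proteins are made in matched amounts. In mammals nearly all of these genes carry a terminal oligopyrimidine (TOP) start on their messenger RNA, which lets mTOR control their translation together with that of elongation factors. Their messages are short, abundant and copied back into the genome as processed pseudogenes. Loss of 1 copy of some of these genes causes Diamond-Blackfan anaemia in humans, and lesions of others occur in human leukaemias.

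The reads counted on genes were 46579680, 24733256 and 51934498 in Stat3β TG 1 to 3 and 26805344, 21809788 and 21847953 in WT 1 to 3. The largest component of variation (47.4%) did not follow the groups. On it WT 2 and WT 3 stood apart at 64.4 and 49.7, while Stat3β TG libraries lay between -31.4 and -16.3 and WT 1 lay at -38.3. Levels of Xist and of Y-linked genes set WT 1 and WT 3 apart from the other 4 libraries. Xist had 71.6, 25.9 and 19.1 normalized counts in Stat3β TG and 42699, 835 and 45196 in WT. Y-linked Ddx3y had 3163, 3146 and 2943 in Stat3β TG and 23.9, 4959 and 29.6 in WT. This split lies partly along the groups, so its part in a group difference cannot be told apart from that of the transgene. All 10 markers of myeloid blasts were measured, and their summed level was 150695 to 183623 normalized counts in Stat3β TG and 102310 to 173567 in WT. The 9 T and NK cell markers found in the table, of 10 listed, had low levels. They summed to 278, 165 and 230 in Stat3β TG and 282, 130 and 39.4 in WT. WT 1 was thus the highest library, and only WT 2 and WT 3 lay below the Stat3β TG libraries. Cd3e was at 0 in every library, whereas Lck had 81.7, 50.5 and 75.8 in Stat3β TG and 82.7, 60.9 and 28.1 in WT. The 6 tested markers of this list all had log2 fold changes above 0, against 51.4% of all tested genes. Their median was 1.17, and 0 passed. Stat3, the gene whose splice form the transgene encodes, had 11129, 9846 and 8034 normalized counts in Stat3β TG and 8058, 16112 and 10879 in WT. Its log2 fold change was -0.23 (SE 0.26, limma adjusted p = 0.771). Without WT 2 and WT 3 it was 0.25, and a gene-level value sums all splice forms, so it does not check the transgene.

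The coding sequences of these genes mostly share stretches with other annotated genes or pseudogenes. Examples are shown first because the counted levels are set beside them. Each coding sequence was cut into all its 50-base words, and a word was called unique if no other annotated gene or pseudogene outside the gene's own locus held it on either strand (GENCODE vM21, GRCm38). The read length is not given in the sources used here, so 50 bases is an assumed length. In the spliced coding sequences below, written 5′ to 3′ without the stop codon, capitals mark the bases covered by at least 1 unique word. A base in capitals can also lie in words that other genes hold. Rps21 and Rpl39 are shown as members with unique words, and Rps27, Rps28 and Rpl41 as members with none.
Rps21: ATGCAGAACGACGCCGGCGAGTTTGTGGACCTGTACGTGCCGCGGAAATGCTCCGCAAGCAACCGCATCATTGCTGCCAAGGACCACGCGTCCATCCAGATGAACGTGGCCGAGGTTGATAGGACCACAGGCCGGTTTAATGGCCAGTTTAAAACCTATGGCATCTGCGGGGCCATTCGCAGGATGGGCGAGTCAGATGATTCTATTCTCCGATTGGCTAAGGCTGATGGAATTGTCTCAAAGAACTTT
Rpl39: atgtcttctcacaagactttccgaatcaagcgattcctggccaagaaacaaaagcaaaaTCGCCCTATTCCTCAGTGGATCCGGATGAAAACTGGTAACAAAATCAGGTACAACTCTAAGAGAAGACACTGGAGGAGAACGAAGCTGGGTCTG
Rps27: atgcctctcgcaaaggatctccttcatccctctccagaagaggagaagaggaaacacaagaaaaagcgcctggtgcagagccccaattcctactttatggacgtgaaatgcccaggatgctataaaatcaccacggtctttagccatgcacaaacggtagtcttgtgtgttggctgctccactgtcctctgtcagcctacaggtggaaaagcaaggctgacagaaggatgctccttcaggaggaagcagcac
Rps28: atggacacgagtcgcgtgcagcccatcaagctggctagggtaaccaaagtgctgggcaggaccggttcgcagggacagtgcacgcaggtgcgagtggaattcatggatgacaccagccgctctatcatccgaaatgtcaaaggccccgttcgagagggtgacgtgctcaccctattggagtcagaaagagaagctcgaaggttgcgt
Rpl41: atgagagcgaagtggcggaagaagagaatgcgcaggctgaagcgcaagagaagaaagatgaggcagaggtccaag

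The GENCODE genes of these sequences, over all their transcripts, lie on GRCm38 at chr2:180257377-180258445 on the plus strand (Rps21), chrX:37082520-37085402 on the minus strand (Rpl39), chr3:90212522-90213651 on the minus strand (Rps27), chr17:33819027-33824562 on the minus strand (Rps28) and chr10:128548114-128549305 on the minus strand (Rpl41). Of the coding words of Rps21, 109 of 200 were unique, and every base lay in at least 1 of them. Rpl39 had 14 unique words of 104, which covered 94 of its 153 coding bases and left the first part uncovered. Rps27 had 0 unique words of 203, Rps28 had 0 of 158 and Rpl41, the shortest member with 75 coding bases, had 0 of 26. The 2 members with unique words averaged 4580 (Rps21) and 3358 (Rpl39) normalized counts over the 6 libraries. Rps27 averaged 66.3, Rps28 48.4 and Rpl41 3497 normalized counts, so Rpl41 went against the order of the others.

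Over all 75 members the median share of unique coding words was 8.44%, whereas it was 100% over 11700 other tested genes. The share was under 50% in 64 members, which is 85.3% of them, and in 414 of the other genes, which is 3.54%. It was 0 in 30 members. At least 1 other gene shared a coding word with 74 members. The median number of such genes was 9 per member, and Rpl7a, a large-subunit protein, had the most at 123. Of the 1113 pairs of a member and a sharing gene, 33 had a row for the sharing gene in the table.

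Among the 75 members that passed the level rule, those with more unique words tended to have higher counted levels. Rpl26, which that rule left out at 0 in all 6 libraries, goes against this order. Its unique share was 12.7%, above the median of the members, and it is in none of the values below. Levels between genes are given as the mean normalized count over all 6 libraries per kilobase of coding sequence, and they ran from 73.9 for Rpl30 to 68708 for Rps3, a 929-fold range. The Spearman correlation of the unique share with this level was 0.81 over the 75 members, 0.82 per kilobase of transcript and 0.81 with words of 100 bases. Rpl41 is too short for words of 100 bases and is left out of that last value. It is a description across genes, which share all 6 libraries. The number of sharing genes had a correlation of -0.49 with the level. The 58 members with a unique share under 25% had a median of 886 per kilobase, the 6 members from 25% to 50% a median of 30086, the 7 from 50% to 75% a median of 28350, and the 4 above 75% a median of 63635. Among exceptions named after their values were seen, Rpl41 reached 46621 per kilobase with no unique word, while Rpl34 had 169 with a share of 27.8% and Rpl30 had 73.9 with a share of 16.9%. The value of Rpl41 rests on 75 coding bases in a transcript of 437. Per kilobase of transcript it was 8001, still above the 1594 of Rpl13, another member with no unique word. Words outside the coding sequence were not searched. How the authors' counting treated reads that match several places is not given in the sources used here, and its part in these levels was not tested.

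**Figure D1:**
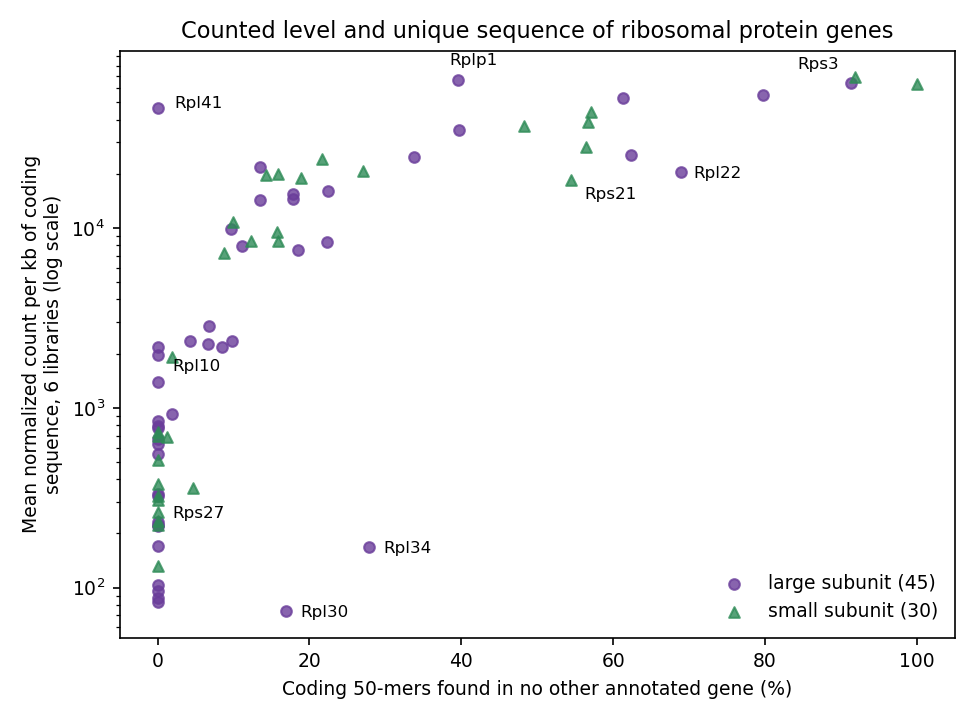
Mean normalized count per kilobase of coding sequence over 6 libraries (log axis) against the percentage of coding 50-base words found in no other annotated gene, with 1 point per member, circles for the 45 large-subunit and triangles for the 30 small-subunit genes. Members with 0% unique words lie between 83.5 and 46621, where Rpl41, with only 75 coding bases, is the highest. The 11 members with at least 50% lie between 18392 and 68708.

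By mean normalized count, not divided by length, the 3 highest members were Rpl4, Rps3 and Rpl8. Rpl4, which lines the tunnel through which the new protein leaves the large subunit, had 58273, 70788 and 65884 normalized counts in Stat3β TG and 59368, 73356 and 86086 in WT. Rps3, at the site where messenger RNA enters the small subunit, had 42957, 51790 and 49580 in Stat3β TG and 40962, 54168 and 61073 in WT. Rpl8, which lies by the catalytic centre, had 40625, 50734 and 49667 in Stat3β TG and 40992, 56301 and 56731 in WT. The groups overlapped for all 3, whose log2 fold changes were -0.15, -0.10 and -0.12. The 3 lowest by the same mean count were Rpl30, Rpl36a and Rpl23a. Rpl23a, which docks factors at the tunnel exit, had 41.5, 67.7 and 26.4 in Stat3β TG and 33.7, 23.01 and 42.2 in WT, a log2 fold change of 0.38 (SE 0.50). Recovered reads per library and member ran from 9 (Rps28 in WT 3) to 117269, and 74 of 75 members had at least 10 reads in every library.

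Levels of the members were compared between Stat3β TG and WT blasts. None of the 75 members passed the test, and in 73 of them the values of the groups overlapped. With limma and Benjamini-Hochberg adjustment over all 12642 tested genes, 0 members and 0 of all genes passed an adjusted p of 0.05, which is 0% (percentage of all tested genes called). At an unadjusted p under 0.05 there were 0 members, against 6.1% of all genes, with 0 members higher against 3.56% of genes and 0 lower against 2.54%. On the recovered reads edgeR passed 0 members and 0% of genes after adjustment, with 0 members and 6.17% of genes at an unadjusted p under 0.05. DESeq2 passed 0 members and 0.134% of genes after adjustment, with 0 members and 7.67% at an unadjusted p under 0.05. In 2 members, Rps27a and Rps16, every Stat3β TG library was above every WT library, against 5.87% of all genes, and in 0 members every Stat3β TG library was below every WT library, against 4.92% of all genes. A level in bulk RNA cannot tell apart less RNA per cell and fewer cells of a kind.

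The members' log2 fold changes ran from -0.77 to 0.94 and leaned to the lower side. The log2 fold change was below 0 in 52 members (69.3%), against 48.6% of all tested genes, and above 0 in 23, against 51.4%. Its median was -0.07 over the members and 0.01 over all tested genes. For the large subunit 32 of 45 members were below 0, with a median of -0.08, and for the small subunit 20 of 30, with a median of -0.06. This lean depended in part on single libraries. It was kept without Stat3β TG 2 (8 above, 67 below), without Stat3β TG 3 (23 above, 52 below) and without WT 2 (30 above, 45 below). Without WT 1 and WT 3 together there were 20 above and 55 below, with a median of -0.15. Without Stat3β TG 1 there were 51 members above 0 and 24 below, with a median of 0.04, and without WT 3 there were 43 above and 32 below, with a median of 0.02. Without WT 1 there were 12 above and 63 below, with a median of -0.18, and without WT 2 and WT 3 together there were 61 above and 14 below, with a median of 0.15. No member passed in a fit with 1 library left out.

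The 11 members with at least 50% unique words all averaged 4580 normalized counts or more. Among them were Rps3, Rpl8, Rpl4, Rpl22, Rpl13a, Rps9, Rps15 and Rps21. Their log2 fold changes ran from -0.15 to 0.03, with 10 below 0 and 1 above, and their standard errors ran from 0.15 to 0.22. Their 95% intervals all lay within -0.62 and 0.40, which is a fold between 0.651 and 1.32. Of the 30 members with no unique word, 15 were above 0 and 15 below, with log2 fold changes from -0.77 to 0.94 and standard errors up to 0.61. The median 95% interval reached 0.43 to either side for the 11 members, as for the 40 members with a mean of at least 1000, and 0.76 for the 30, so a change of a given size was less detectable in the 30.

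**Figure D2:**
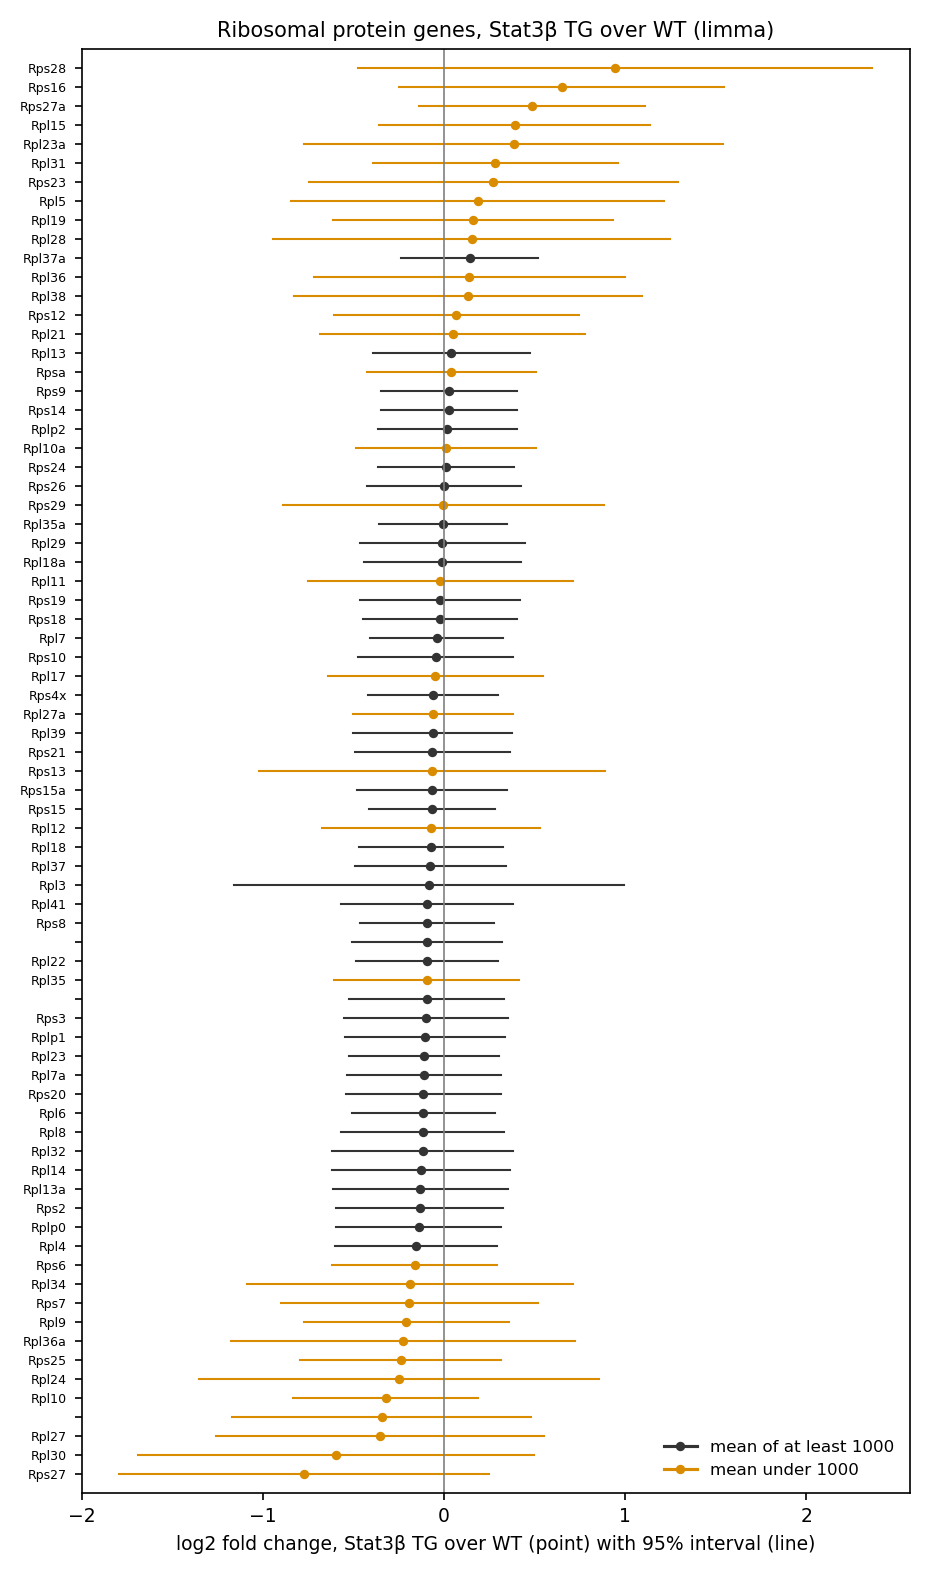
Fold change (log2, Stat3β TG over WT, limma) of the 75 members (points, ordered by value, not all labelled) with the 95% interval (lines), in dark for the 40 members with a mean of at least 1000 normalized counts and in orange for the 35 below. Every interval spans 0, and the widest belong to low members such as Rps28, at 0.94, and Rps27, at -0.77.

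Among members higher in Stat3β TG, the smallest p was that of Rps27a, which is made as a fusion of ubiquitin and a small-subunit protein (Entrez 78294, chr11:29545842-29548040, RefSeq on GRCm38). It had 281, 344 and 224 normalized counts in Stat3β TG and 199, 206 and 191 in WT. All 3 Stat3β TG libraries were above the WT libraries, with Stat3β TG 2 the highest. The means were 283 ± 59.98 in Stat3β TG and 199 ± 7.20 in WT (SD, n = 3 each), a log2 fold change of 0.49 with a standard error of 0.27, a 95% interval from -0.14 to 1.11 and a limma adjusted p of 0.668. Fitted without trend and robust moderation, Rps27a had an unadjusted limma p under 0.05 and an adjusted p of 0.709. With no unique word among its coding words, Rps27a shares words with 14 other genes.

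Rps16, whose tail contacts the transfer RNA in the peptidyl site (Entrez 20055, chr7:28350689-28352698), had 98.4, 144 and 110 normalized counts in Stat3β TG and 97.95, 82.6 and 49.3 in WT. Its groups did not overlap, but Stat3β TG 1 and WT 1 were less than 1 normalized count apart. This gave a log2 fold change of 0.65 (SE 0.39, limma adjusted p = 0.668), and without WT 3 it was 0.36. Rps28, a small-subunit protein at the messenger RNA exit (Entrez 54127), had the largest fold change, with 49.5, 96.04 and 41.6 normalized counts in Stat3β TG and 44.6, 46.03 and 12.7 in WT. These levels rest on few reads, with 9 reads in WT 3, and the ratio of the highest to the lowest library was 7.58. Its log2 fold change was 0.94 (SE 0.61, limma adjusted p = 0.675), and without WT 3 it was 0.36.

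The next members higher in Stat3β TG were Rpl15, Rpl31 and Rpl37a, all of the large subunit. Rpl15 had 558, 527 and 630 normalized counts in Stat3β TG and 711, 299 and 387 in WT, where WT 1 was above every Stat3β TG library. Its log2 fold change of 0.39 changed sign without WT 2 and WT 3, to -0.32. Rpl31, near the tunnel exit, had 195, 238 and 246 in Stat3β TG and 233, 148 and 183 in WT, a log2 fold change of 0.28 that became -0.05 without WT 2 and WT 3. Rpl37a, a zinc-binding protein, had 1791, 2485 and 2284 in Stat3β TG and 1902, 1947 and 2045 in WT, a log2 fold change of 0.14. The groups overlapped for all 3.

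Among members lower in Stat3β TG, Rps27, a zinc-binding protein of the small subunit (Entrez 57294, chr3:90212667-90213648 in RefSeq), had the smallest p. Its sequence is printed above and holds no unique word. It had 52.9, 39.4 and 48.3 normalized counts in Stat3β TG and 47.9, 118 and 91.5 in WT. WT 1 lay among the Stat3β TG libraries, and WT 2 and WT 3 lay above all of them. The log2 fold change was -0.77 with a standard error of 0.44, a 95% interval from -1.80 to 0.25 and a limma adjusted p of 0.668. Without WT 2 and WT 3 it was -0.04, and without WT 1 it was -1.14.

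Rpl10, which joins the large subunit last and is recurrently mutated in human T-cell leukaemia (Entrez 110954, chrX:74270816-74273135), had 717, 1026 and 665 normalized counts in Stat3β TG and 834, 1072 and 1075 in WT. Stat3β TG 2 lay within the WT range and the other 2 Stat3β TG libraries below it. The log2 fold change was -0.32 (SE 0.22, limma adjusted p = 0.675). Rpl30, at the contact between the subunits, had 15.4, 19.7 and 24.7 in Stat3β TG and 23.9, 27.1 and 42.2 in WT, a log2 fold change of -0.60 with a standard error of 0.47. Rps25, which supports initiation at internal entry sites, had 605, 745 and 606 in Stat3β TG and 557, 881 and 917 in WT. Rpl27, which can be mutated in Diamond-Blackfan anaemia, had 102, 150 and 92.7 in Stat3β TG and 92.5, 183 and 176 in WT. The groups overlapped for both, with log2 fold changes of -0.24 (Rps25) and -0.35 (Rpl27). Without WT 2 and WT 3 the log2 fold change was 0.22 for Rps25 and 0.28 for Rpl27.

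**Figure D3:**
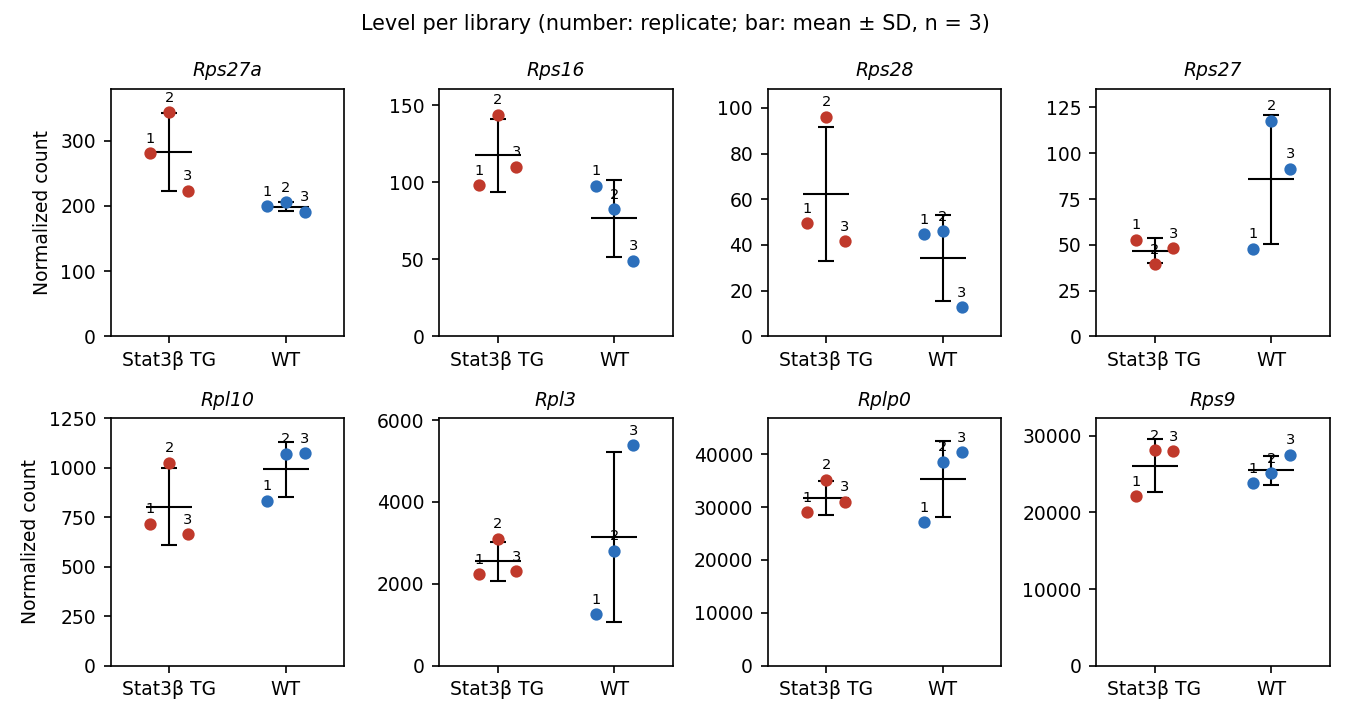
Normalized count per library (points, numbered by replicate) with the mean and SD of 3 libraries for 8 members, Stat3β TG left of WT in each panel. Rps27a and Rps16 have all Stat3β TG points above the WT points. Rps28 has its lowest value in WT 3, and Rps27 has its highest values in WT 2 and WT 3. Rpl3 has its lowest and highest values, 1261 and 5381, both in WT.

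The members moved together from library to library within each group, most clearly at high counts. Of the 40 members with a mean of at least 1000 normalized counts, all 40 had their lowest value in Stat3β TG 1 or WT 1, against 30.6% of all 12642 tested genes, so that each group held 1 low library. The median deviation of these 40 members from their own mean, on the log2(normalized count + 1) scale, was -0.24, 0.10 and 0.07 in Stat3β TG 1 to 3 and -0.21, 0.12 and 0.20 in WT 1 to 3. The median log2 ratio of Stat3β TG 2 over Stat3β TG 1 was 0.37, and that of WT 3 over WT 1 was 0.44, while over all tested genes both were -0.01. Both ratios set the highest library of a group, by median, over its lowest. They are therefore not the same measure as a difference between means of 3 libraries. Between the groups the median log2 fold change of these members was -0.08, with 33 below 0 and 7 above.

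In the 35 members with a mean under 1000 the pattern was weaker, and 15 of them had their lowest value in Stat3β TG 1 or WT 1. Their median deviations were -0.13, 0.28 and -0.22 in Stat3β TG and -0.08, 0.12 and 0.07 in WT. Here Stat3β TG 3 was the lowest library by median, and Stat3β TG 2 the highest. Summed over all 75 members, the level was 450249, 568303 and 547670 normalized counts in Stat3β TG and 462083, 580712 and 629630 in WT. On average, the 11 members with at least 50% unique words made up 305960 of 522074 in Stat3β TG and 330344 of 557475 in WT. All members held 1.44%, 1.87% and 1.88% of the reads counted on genes in Stat3β TG and 1.58%, 1.97% and 2.05% in WT. The means were 1.73% ± 0.247 in Stat3β TG and 1.87% ± 0.248 in WT (SD, n = 3 each). The groups overlapped, and the difference of the means was smaller than either SD. Stat3β TG 1 and WT 1 held more reads than all other libraries except Stat3β TG 3, and the part of RNA quality or handling in this pattern was not tested.

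**Figure D4:**
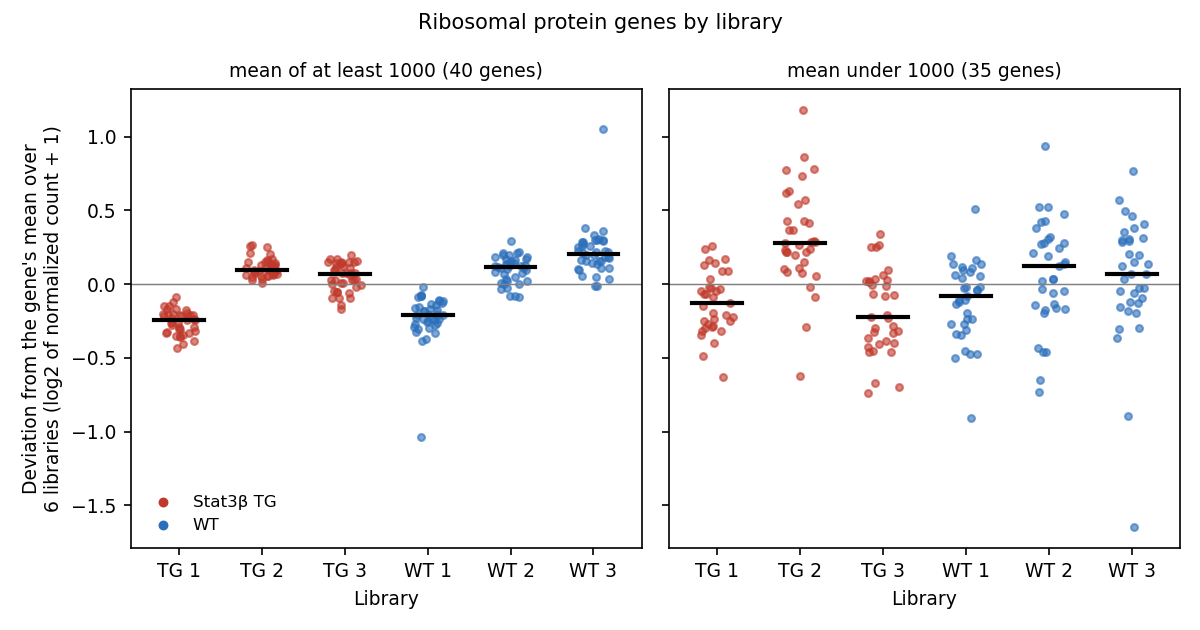
Deviation of each member from its own mean over 6 libraries on the log2(normalized count + 1) scale, Stat3β TG libraries left of WT libraries, with black lines at the medians, for the 40 members with a mean of at least 1000 (left) and the 35 below (right). In the left panel Stat3β TG 1 and WT 1 lie lowest, at medians of -0.24 and -0.21, and the single points at both extremes of WT are Rpl3.

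Rpl3, a large-subunit protein at the catalytic centre, was the exception among the abundant members and was chosen after its values were seen (Entrez 27367, chr15:80077781-80083406). It had 2238, 3099 and 2303 normalized counts in Stat3β TG and 1261, 2803 and 5381 in WT. The highest library was 4.27 times the lowest, and both were WT, whereas the median of this ratio was 1.44 over the 40 abundant members. The log2 fold change was -0.08 (SE 0.46, limma adjusted p = 0.954), 0.42 without WT 3 and -0.62 without WT 1. Of its coding words 4.3% were unique, and 26 other genes shared at least 1.

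The P stalk is the flexible arm of the large subunit that recruits elongation factors. Its base Rplp0 had 28964, 35138 and 31026 normalized counts in Stat3β TG and 27116, 38569 and 40380 in WT. Rplp1 had 18549, 24244 and 22636 in Stat3β TG and 18846, 25800 and 26221 in WT, and Rplp2 had 6977, 9569 and 9523 in Stat3β TG and 8042, 8588 and 8869 in WT. The groups overlapped for all 3, with log2 fold changes of -0.14, -0.11 and 0.02 and standard errors of 0.20, 0.19 and 0.17. The sign flipped without WT 2 and WT 3 for Rplp0 (0.22) and Rplp1 (0.20), and with scaling on the other genes for Rplp2 (-0.01).

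Rplp0 and Rpl13a are often used as reference genes in quantitative PCR. Rpl13a had 24335, 33404 and 34373 normalized counts in Stat3β TG and 27006, 35771 and 37971 in WT. Its lowest library was Stat3β TG 1 and the next lowest WT 1. On the log2 scale the fold change was -0.13 with a 95% interval from -0.61 to 0.35, and it was 0.17 without WT 2 and WT 3. The ratio of its highest to its lowest library was 1.56, and that of Rplp0 was 1.49. Over the 11 members with at least 50% unique words this ratio ran from 1.27 to 1.70, the lowest being that of Rps9 (named for this), with 22127, 28155 and 28001 in Stat3β TG and 23782, 25103 and 27537 in WT.

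Values of the groups overlapped for Rps19, Rps14 and Rps26, which have a part in human anaemias. Rps19, the gene most often mutated in Diamond-Blackfan anaemia, had 6919, 8589 and 9054 normalized counts in Stat3β TG and 6542, 9071 and 9510 in WT, a log2 fold change of -0.02 with a 95% interval from -0.47 to 0.42. Rps14, whose loss underlies the anaemia of the human 5q- syndrome, had 14671, 17433 and 18177 in Stat3β TG and 14240, 17329 and 17829 in WT, with a log2 fold change of 0.03 and an interval from -0.35 to 0.40. Rps26, also mutated in Diamond-Blackfan anaemia, had 5559, 7837 and 8131 in Stat3β TG and 6339, 7712 and 7236 in WT. The difference was 0.00 on the log2 scale, with an interval from -0.42 to 0.43. Signs this close to 0 changed with the scaling, to 0.00 on the positive side for Rps19 with quantile normalization and to -0.01 for Rps26 with TMM factors.

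Rpl22, whose loss is recurrent in human T-cell leukaemia, had 6158, 8060 and 8827 normalized counts in Stat3β TG and 7750, 7868 and 8776 in WT, a log2 fold change of -0.10 with an interval from -0.49 to 0.30. Rps15, mutated in human chronic lymphocytic leukaemia, had 14609, 17175 and 17787 in Stat3β TG and 16046, 17089 and 18784 in WT, a log2 fold change of -0.07 with an interval from -0.42 to 0.28. Both genes had Stat3β TG 1 as their lowest library. Rpl5 and Rpl11 bind Mdm2 and so stabilise p53 when ribosomes are not assembled. Rpl5 had 72.3, 91.1 and 76.4 in Stat3β TG and 39.2, 104 and 83.02 in WT, and Rpl11 had 147, 235 and 151 in Stat3β TG and 152, 207 and 172 in WT. Neither gene has a unique coding word, and their intervals were wider, from -0.85 to 1.22 for Rpl5 and from -0.75 to 0.71 for Rpl11.

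The 4 X-linked members were Rpl10, Rpl36a, Rpl39 and Rps4x. Rpl39, a small protein of the exit tunnel whose sequence is printed above, had 2640, 3534 and 3682 normalized counts in Stat3β TG and 2943, 3268 and 4081 in WT. Rps4x, a small-subunit protein, had 7630, 8802 and 8499 in Stat3β TG and 7322, 9327 and 9466 in WT. Rpl36a had 24.8, 28.3 and 30.3 in Stat3β TG and 33.7, 36.5 and 28.1 in WT. WT 1 and WT 3, which the sex-linked genes set apart, were the lowest and the highest library for Rps4x, so its level did not follow that split, and the 3 log2 fold changes were -0.06, -0.06 and -0.23 with standard errors of 0.19, 0.16 and 0.41.

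Other genes of the translation pathway gave no call either. Of 4 core ribosomal proteins outside the symbol rule, which include Rack1, 2 were above 0 and 2 below, and 0 passed, with a median of 0.01 on the log2 scale. Of 14 translation factors of the TOP class, which include the elongation factors Eef1a1 and Eef2, 12 were below 0, against 48.6% of all tested genes. The other 2 were above, with a median of -0.11 over the 14 and 0 passing. Their summed level was 290783, 332128 and 308475 normalized counts in Stat3β TG and 281664, 371841 and 379763 in WT, so WT 1 and Stat3β TG 1 were again the 2 lowest libraries. In that list Tpt1, a TOP messenger RNA of a growth-associated protein, had 1470, 1623 and 1396 in Stat3β TG and 1578, 2040 and 1997 in WT, a log2 fold change of -0.32 (limma adjusted p = 0.668). Eif4b, a helper of the initiation helicase, had 16219, 16403 and 16031 in Stat3β TG and 15599, 20678 and 22439 in WT, a log2 fold change of -0.25, with WT 1 the lowest library.

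Of 8 host genes of small nucleolar RNAs with TOP starts, 8 were below 0, against 48.6% of all tested genes. Of these host genes 0 passed, with a median of -0.30 on the log2 scale. Their summed level was 17005, 23232 and 17702 normalized counts in Stat3β TG and 17125, 22455 and 33295 in WT. WT 1 and WT 2 thus lay within the Stat3β TG range, and WT 3 alone lay above it. Snhg8 had 1108, 1560 and 1322 normalized counts in Stat3β TG and 1468, 1901 and 2436 in WT, a log2 fold change of -0.52 (SE 0.22, limma adjusted p = 0.668). Snhg5 had 2272, 2789 and 2046 in Stat3β TG and 2023, 3873 and 5063 in WT, where WT 1 was the lowest library of all 6. Their groups overlapped. The 14 regulators of TOP translation split evenly, with 7 above 0, 7 below and 0 passing. Tsc1, a brake on mTOR, had 1557, 1481 and 1497 in Stat3β TG and 1709, 2541 and 2021 in WT, without overlap, and a log2 fold change of -0.45 (SE 0.18, limma adjusted p = 0.668). Eif4ebp3, which holds back cap-dependent initiation, had 582, 744 and 856 in Stat3β TG and 685, 481 and 401 in WT, a log2 fold change of 0.50.

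Genes that build ribosomes or respond to their failure gave the same count of 0 passing. Of 9 chaperones and importers of ribosomal proteins 4 were above 0 and 5 below, and of 15 measured genes of RNA polymerase I, which makes ribosomal RNA, 5 were above and 10 below. Aamp, a chaperone in the first list, had 4796, 5024 and 5396 normalized counts in Stat3β TG and 4817, 3476 and 4092 in WT, a log2 fold change of 0.31. In the second list Cd3eap, a polymerase I subunit, had 956, 907 and 871 normalized counts in Stat3β TG and 722, 597 and 704 in WT, without overlap, and a log2 fold change of 0.44 (SE 0.17, limma adjusted p = 0.668). Of 7 tested genes in the list for the p53 response to free ribosomal proteins 4 were above 0 and 3 below. In it Trp53, which encodes p53, had 4394, 4602 and 4773 in Stat3β TG and 4353, 1549 and 2593 in WT, with WT 1 close to the Stat3β TG libraries. Its log2 fold change was 0.82 (SE 0.33, limma adjusted p = 0.668).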

How the data were processed

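The authors deposited a table of normalized counts, a signal per gene and library with Entrez IDs. GRCm38, STAR, FastQC and DESeq2 are named in the submitters' processing notes. The gene counter, strand handling and treatment of reads matching several places were not given in the sources used here. Of the 146724 deposited values of the 6 libraries together, 100% were whole multiples of 1 step per library within 0.001. Whole reads were therefore recovered, and 1 read was worth 0.562 to 1.41 normalized counts. Symbols came from the RefSeq table of GRCm38.p6 (24376 of 24454 IDs). Values were tested as log2(normalized count + 1) with limma 3.58.1 (trend, robust, two-sided, Benjamini-Hochberg) in R 4.3.3 on 12642 genes with at least 10 in at least 3 libraries. The pseudocount understates changes of low genes. On recovered reads edgeR 4.0.16 (quasi-likelihood) and DESeq2 1.42.0 (Wald) were run as alternatives, beside other pseudocounts, filters and scalings and left-out libraries. Scripts were tested on simulated data. Every pair of libraries differed beyond sampling noise. Intervals cover the spread between libraries, and limits from read numbers cover counting error only. Genes with near-identical copies can lose reads, so their levels are uncertain.

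The members and gene lists were chosen with earlier results of these data known. Values in every library are given for the 6 members with the smallest p in each direction, the 3 highest and 3 lowest by mean normalized count, the X-linked, disease-linked and P stalk members, Rplp0 and Rpl13a, and up to 2 genes of each other list. Genes outside this rule are named as such or as part of a count. Some results under this rule are not reported here.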

Additional observations from a re-analysis of the deposited data

How the results depend on the processing

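The count of members passing the limma test was 0 in every alternative run. Over all genes it was 0 in the fit of all 6 libraries, with 771 genes at an unadjusted limma p under 0.05, and 0 with other pseudocounts, filters and scalings and with edgeR, 17 with DESeq2, between 0 and 346 with 1 library left out (346 without WT 1), 9 without WT 2 and WT 3, and 740 without WT 1 and WT 3. Those last 2 fits assume that a lone WT library varies as Stat3β TG libraries do. The members' median log2 fold change lay between -0.18 and 0.04 with 1 library left out and was 0.15 and -0.15 in those 2 fits. Replicate numbers did not pair the libraries throughout. Correlations of same-numbered deviations were 0.14, 0.0995 and -0.11, and those of different numbers ran from -0.20 to 0.14. For WT 1 and WT 2 the same-numbered Stat3β TG library had the highest correlation, and for WT 3 it had the lowest. With a replicate block 0 members and 0 of all genes passed, with a member median of -0.07.

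Of 31 named genes, signs changed in 52 of 585 comparisons with an alternative, 28 of them with 1 library left out. Without WT 2 and WT 3 the log2 fold change changed sign for Rpl15 (-0.32), Rpl31 (-0.051), Rps25 (0.22), Rpl27 (0.28), Rpl4 (0.13), Rps3 (0.23), Rpl8 (0.19), Rpl39 (0.14), Rps4x (0.18), Rps19 (0.31), Rpl11 (0.18), Rps15 (0.037), Rplp0 (0.22), Rpl13a (0.17), Rplp1 (0.20), Rpl3 (0.997) and Stat3 (0.25). Without WT 1 and WT 3 it did for Rps14 (-0.054), Rps26 (-0.12) and Rpl5 (-0.39). With TMM factors Rps26 was at -0.0066, with scaling on the other genes Rps26 was at -0.023 and Rplp2 at -0.0057, and with quantile normalization Rps19 was at 0.0048. With 1 library left out, the values ran from -0.24 to 0.099 for Rpl11, -0.28 to 0.028 for Rpl13a, -0.20 to 0.055 for Rpl22, -0.62 to 0.42 for Rpl3, -0.17 to 0.086 for Rpl39, -0.22 to 0.47 for Rpl5, -0.26 to 0.0040 for Rplp1, -0.059 to 0.17 for Rplp2, -0.075 to 0.12 for Rps14, -0.12 to 0.017 for Rps15, -0.19 to 0.094 for Rps19, -0.0995 to 0.17 for Rps26, -0.26 to 0.026 for Rps3, -0.18 to 0.0054 for Rps4x and -0.47 to 0.034 for Stat3. The cause was not tested.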

Other observations

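Rps4l and Rpl39l, paralogs that encode variants of ribosomal proteins, were high in single libraries. Rps4l, an autosomal relative of Rps4x, had 42.2, 836 and 25.3 normalized counts in Stat3β TG and 1.09, 1.35 and 1250 in WT. Stat3β TG 2 and WT 3 held nearly all of its reads, and in WT 1 and WT 2 it was at 1 read. The log2 fold change was 2.42 (SE 2.49, limma adjusted p = 0.745). Rpl39l, a relative of Rpl39 known from the male germ line, had 388, 6.16 and 0 in Stat3β TG and 9.80, 0 and 0 in WT, so that Stat3β TG 1 alone had a high level, and it did not pass the level filter.

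The paralogs Rpl22l1, Rps27l and Rpl36al, chosen after their values were seen, were present in every library. Rpl22l1 had 1494, 2211 and 1846 normalized counts in Stat3β TG and 1785, 1687 and 1962 in WT, and Rps27l had 833, 1159 and 1596 in Stat3β TG and 1137, 1134 and 1251 in WT. Both overlapped between the groups, with log2 fold changes of 0.02 and -0.02. Rpl10l and Rps27rt were listed at 0 in all 6 libraries. Of 7 rows for processed copies whose symbol names a member, Rpl14-ps1 had the highest counts, with 1181, 1325 and 1292 normalized counts in Stat3β TG and 1156, 1624 and 1794 in WT. Of the coding words of Rpl14, 22.3% were unique, and the 1 gene that shared the others was a pseudogene with a row. Whether reads of Rpl14 were counted on the copy was not tested.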
